A study of Homo sapiens with 6 samples.

Results

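The 10 genes described here are 4 keratins (KRT7, KRT8, KRT18 and KRT10), the epithelial cell adhesion molecule EPCAM, the claudins CLDN1 and CLDN4, occludin (OCLN), the scaffold protein ZO-1 (TJP1) and plakoglobin (JUP). They were taken by name from the 57341 named genes of a count table of 6 RNA-seq libraries, and all 10 passed the filter on low counts that left 16710 genes to be tested. The libraries came from H295R, a human adrenocortical carcinoma cell line that makes steroid hormones, and from H295R-PM-Ptc+ cells, a population isolated from H295R by sorting with an antibody to Ptch1 at the plasma membrane and then grown up. Ptch1 is the receptor of Hedgehog ligands and was studied here as a pump that exports chemotherapeutic drugs. Both groups had 3 libraries, were grown in the same DMEM/F12 medium with NuSerum and ITS+, and received no treatment. The comparison asks how the sorted population differs from the line it came from. Both groups rest on 1 cell line. Nothing in the labels ties the replicates to separate cultures or sorts, so the p-values measure only the spread between these libraries.

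Between 23264403 and 25813247 fragments were counted on genes per library. PTCH1, whose protein the sort was made for, was at 441, 559 and 579 counts in the libraries labelled H295R and at 248, 326 and 319 in those labelled H295R-PM-Ptc+. Its RNA was thus lower in the latter (log2 fold change -0.81, standard error 0.147, adjusted p = 0.0207; 0.00638 to 0.0921 when each library was left out in turn, past 0.05 without H295R replicate 2 or 3 or H295R-PM-Ptc+ replicate 2), against the direction of the sort, although the sort was for protein at the membrane and not for RNA. Each column of normalized values in the study's supplement also matched, up to scaling, the counts deposited under the opposite group label. The libraries are therefore named by their deposited labels throughout, and every direction below would turn if the names were exchanged. Of 12 markers of the adrenal cortex 11 were tested, and the defining factor NR5A1 held between 8273 and 9729 counts in each library, whereas CYP11B1, the last enzyme of cortisol synthesis, held at most 3.

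Keratins are the intermediate filaments of epithelial cells and assemble as pairs of a type I and a type II chain, of which KRT18 with KRT8 is the pair of simple epithelia. Tight junctions seal the space between neighboring epithelial cells with claudins and occludin, which ZO-1 ties to actin, while plakoglobin links cadherins to the cytoskeleton in desmosomes and adherens junctions. The adrenal cortex is an endocrine epithelium that is known for little keratin and for vimentin in its cells, and its tumors are told from other carcinomas partly on that ground.

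Processed copies of the KRT8 and KRT18 messages lie across the genome as pseudogenes, and the table counts 50 of KRT8 and 67 of KRT18 as genes of their own. Pairs of 75-base stretches, the length of 1 read, show how close these copies are to the genes within single coding exons in the GRCh38 build; capitals mark the bases that differ within a pair. The first pair sets KRT8 (chr12:52897445-52897519, minus strand) beside KRT8P12 (chr3:160569155-160569229, plus strand), the pseudogene with the most counts, at the place where they are nearest, with 3 differences.
KRT8: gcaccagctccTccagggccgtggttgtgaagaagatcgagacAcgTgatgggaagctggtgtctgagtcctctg
KRT8P12: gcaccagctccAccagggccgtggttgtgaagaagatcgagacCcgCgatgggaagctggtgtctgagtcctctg
The second sets KRT8 (chr12:52898745-52898819, minus strand) beside KRT8P33 (chr5:123401208-123401282, minus strand), where a single base differs.
KRT8: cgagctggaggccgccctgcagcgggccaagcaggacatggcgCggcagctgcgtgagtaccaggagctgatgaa
KRT8P33: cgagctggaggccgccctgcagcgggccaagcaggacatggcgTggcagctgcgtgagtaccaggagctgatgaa
The last sets KRT18 (chr12:52950816-52950890, plus strand) beside KRT18P59 (chr11:125114136-125114210, plus strand), which has 5 differences at its nearest place.
KRT18: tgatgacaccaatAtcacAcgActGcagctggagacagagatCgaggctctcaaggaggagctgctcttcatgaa
KRT18P59: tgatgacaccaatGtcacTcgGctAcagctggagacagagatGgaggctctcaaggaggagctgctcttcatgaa

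KRT8, CLDN4, KRT7, KRT18 and EPCAM, or 5 of the 10 genes, had an adjusted p under 0.05 and rose in the H295R-PM-Ptc+ libraries as labelled, and 0 of the 10 fell. By edgeR's quasi-likelihood test 3.73% of all tested genes were called, 2.42% as higher and 1.32% as lower. KRT18, CLDN4 and EPCAM reached the cut of the low-count filter in all 3 libraries of both groups. KRT7 and KRT8 reached it in only 1 and 2 of the H295R libraries and entered the test through the H295R-PM-Ptc+ libraries, where they are high, so the count of 5 is a description. Without the filter both were called as well (adjusted p = 0.0141 and 2.27e-06). The median log2 fold change of the 10 genes was 0.60, and that of all tested genes was 0.000939. The 5 genes that rose had few counts, and among the 2935 tested genes with a mean log2 CPM (counts per 1000000 counts, TMM-normalized) between those of KRT7 and KRT18, 3.24% were called higher. The highly counted CLDN1, TJP1, KRT10 and JUP did not pass the test, nor did OCLN. DESeq2 and limma-voom called 0 of the 10 genes lower, and none of the 3 genes with a negative fold change had an unadjusted p under 0.05. Bulk RNA cannot tell a larger share of cells with such transcripts from more transcript per cell.

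**Figure D1:**
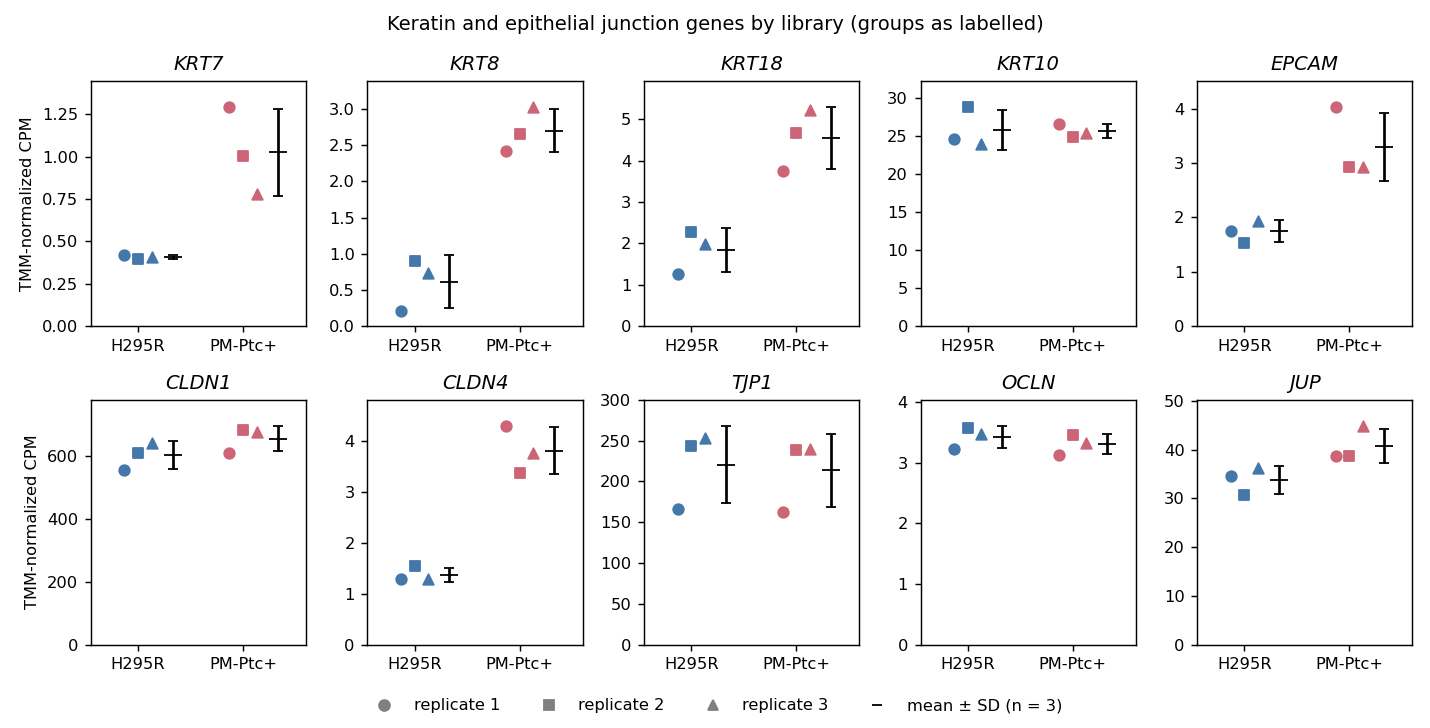
TMM-normalized counts per 1000000 (CPM) of the 10 genes in each of the 6 libraries, with groups as labelled, symbols by replicate number and bars for the mean and SD of 3 libraries. KRT7, KRT8, KRT18, EPCAM, CLDN4 and JUP lie higher in all 3 libraries labelled H295R-PM-Ptc+ than in any labelled H295R, as do 12.4% of all tested genes, while the groups overlap in KRT10, CLDN1, TJP1 and OCLN.

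KRT8, the type II keratin of simple epithelia (chr12:52897187-52949954), had the largest fold change as counted, but not with its pseudogenes added (log2 fold change 0.40, adjusted p = 0.0788). Adding counts that are nearly level between the groups lowers a fold change by construction. Most of them lay on KRT8P12, which shares no identical 75-base stretch with KRT8. It had 5, 23 and 18 counts in replicates 1, 2 and 3 of the libraries labelled H295R and 62, 66 and 70 in those labelled H295R-PM-Ptc+. The groups did not overlap, but replicate 1 of H295R lay far below the other 2 and its 5 counts have an exact 95% Poisson interval of 1.62 to 11.7, which covers counting error only. KRT8 was 0.614 ± 0.362 CPM (SD, n = 3) in H295R and 2.70 ± 0.302 CPM in H295R-PM-Ptc+. This gave a log2 fold change of 2.11 with a standard error of 0.350 (adjusted p = 0.0132). Within same-numbered replicates the log2 differences were 3.54, 1.55 and 2.05. Without H295R replicate 1 the log2 fold change was 1.71 (adjusted p = 0.00341), and the call was lost without H295R replicate 3 (0.0550), H295R-PM-Ptc+ replicate 2 (0.0507) or H295R-PM-Ptc+ replicate 3 (0.0573). With the replicate number as a block the adjusted p was 3.41e-05, in a fit that called 12.1% of all tested genes higher.

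KRT18, the type I partner of KRT8, lies next to it in the genome (chr12:52948871-52952901). Its counts were 30, 58 and 49 in H295R and 96, 116 and 121 in H295R-PM-Ptc+, with replicate 1 the lowest in each group and no overlap between them. Its mean rose from 1.84 ± 0.528 to 4.55 ± 0.743 CPM (SD, n = 3), which on the log2 scale is 1.30 with a standard error of 0.229 (adjusted p = 0.0179). That call was lost without H295R replicate 3 (0.0694), H295R-PM-Ptc+ replicate 2 (0.0694) or H295R-PM-Ptc+ replicate 3 (0.0786). With the replicate number as a block it was kept (adjusted p = 2.92e-05). KRT8 and KRT18 lie on opposite strands and overlap in 525 bases of their exons, and the counting was stated to use strand. Per kilobase of annotated exons there were 0.116, 0.258 and 0.240 KRT8 counts for each KRT18 count in H295R and 0.416, 0.367 and 0.373 in H295R-PM-Ptc+. The mean log2 ratio was 1.00 higher in H295R-PM-Ptc+ and higher in 3 of 3 same-numbered pairs (exact two-sided permutation test, p = 0.1, the smallest that 3 against 3 libraries can give). Without H295R replicate 1, which held 5 KRT8 counts, the difference was 0.63, and with the counts of their pseudogenes added to both genes it turned to -0.40.

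KRT7 is a type II keratin of ducts and glands on the same chromosome (chr12:52232520-52252186). It held 10 counts in every H295R library and 33, 25 and 18 in the H295R-PM-Ptc+ libraries, so the groups did not overlap. The mean was 0.406 ± 0.0125 CPM in H295R and 1.02 ± 0.257 CPM in H295R-PM-Ptc+ (SD, n = 3; log2 fold change 1.33, standard error 0.288, adjusted p = 0.0409). This was the weakest of the 5 calls, since it was lost when any 1 of the 6 libraries was left out (adjusted p 0.0593 to 0.146) and with DESeq2 (0.0851). With the replicate number as a block it was kept (adjusted p = 0.00515). KRT7 shares 282 exon bases with RP3-416H24.1 on the opposite strand, which had 13, 6 and 6 counts in H295R and 11, 13 and 12 in H295R-PM-Ptc+ (log2 fold change 0.53, adjusted p = 0.551), and 32 with KRT87P, which had none.

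KRT10, a type I keratin of the upper epidermis (chr17:40818117-40822595), did not pass the test. It had 588, 731 and 592 counts in H295R and 681, 617 and 587 in H295R-PM-Ptc+, and the groups overlapped (log2 fold change -0.01, standard error 0.0928, adjusted p = 0.975). Its sign turned without H295R replicate 2 (0.08) or H295R-PM-Ptc+ replicate 2 (0.01). Its exons share 56 bases with TMEM99 on the opposite strand, which did not pass the test either (log2 fold change -0.10, adjusted p = 0.764).

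The pseudogenes were counted next to KRT8 and KRT18, and their sums lay closer together between the groups than the counts of the genes. The 50 KRT8 pseudogenes summed to 159, 167 and 170 counts in H295R and 177, 174 and 163 in H295R-PM-Ptc+, more than KRT8 itself in each library. In CPM the sums did not overlap and were 6.70 ± 0.157 and 6.99 ± 0.0587 (SD, n = 3), a log2 ratio of 0.06 (exact two-sided permutation test, p = 0.1, the smallest possible). Of all counts on KRT8 and its pseudogenes, 87.9% to 97.0% fell on the pseudogenes in H295R and 70.0% to 74.1% in H295R-PM-Ptc+. KRT8P12 alone held 132, 129 and 131 counts in H295R and 135, 124 and 123 in H295R-PM-Ptc+ (log2 fold change -0.03, adjusted p = 0.939). KRT8P33 had 11, 21 and 23 against 26, 24 and 18 (0.31, adjusted p = 0.667), and KRT8P39, which was too low to be tested, had 5, 8 and 3 against 5, 18 and 10. Only 14 of the 50 had a count in any library.

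The 67 KRT18 pseudogenes, 15 of them with a count, summed to 38, 43 and 36 counts in H295R and 40, 37 and 27 in H295R-PM-Ptc+, and these overlapped (1.58 ± 0.119 and 1.41 ± 0.212 CPM; exact two-sided permutation test, p = 0.4, where 0.1 is the smallest possible). The largest were KRT18P59 (12, 9 and 9 against 12, 10 and 7), KRT18P5 (13, 8 and 10 against 14, 8 and 5) and KRT18P55 (8, 14 and 6 against 6, 8 and 6). They took 42.4% to 55.9% of the counts on KRT18 and its copies in H295R and 18.2% to 29.4% in H295R-PM-Ptc+. Of the 1710 windows of 75 bases in the KRT8 transcript, 322 (18.8%) occur unchanged in a pseudogene, 190 of them in KRT8P3, which had no counts, 70 in KRT8P33, and none in KRT8P12. For KRT18 this held for 87 of 1339 windows (6.50%). Reads from such windows were counted at the primary position the aligner gave them, so the counts of the genes and of their copies are uncertain to that extent. With all pseudogene counts added to the gene, KRT18 was still called higher (log2 fold change 0.80, standard error 0.160, adjusted p = 0.0313), whereas KRT8 was not (0.40, standard error 0.107, adjusted p = 0.0788). Both fold changes became smaller by construction, since the sums of the pseudogenes differed little between the groups. For KRT8 most of the added counts were those of KRT8P12. Among the other genes, OCLN shared 477 of 6107 windows (7.81%), 472 of them with OCLNP1, EPCAM shared 18 of 1473 (1.22%), and KRT7, KRT10, CLDN1, CLDN4, TJP1 and JUP shared none.

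**Figure D2:**
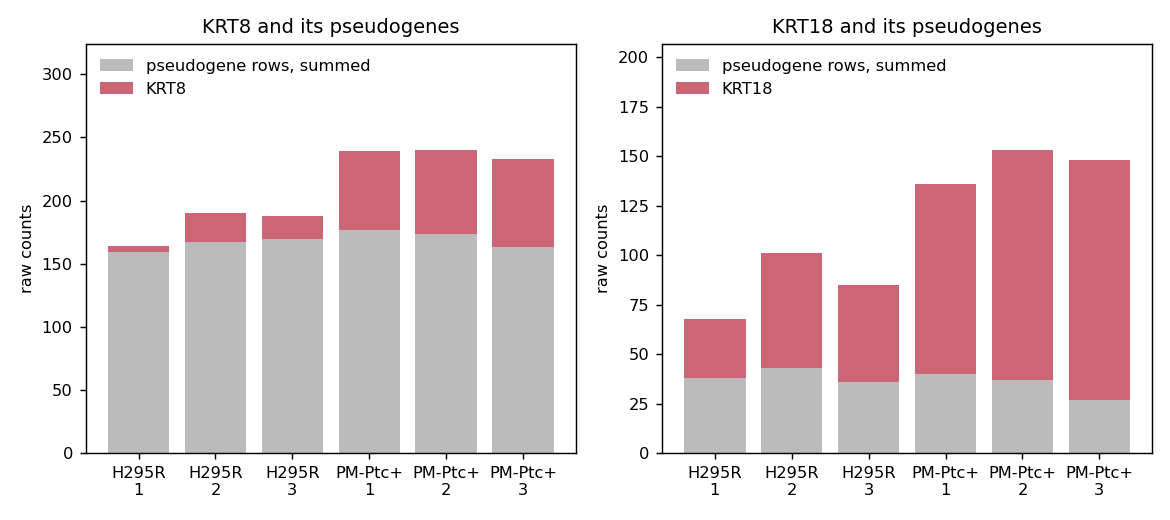
Raw counts of KRT8 (left) and KRT18 (right) in each library, in red, stacked on the summed counts of their pseudogenes, in grey. The grey parts stay between 159 and 177 counts for KRT8 and between 27 and 43 for KRT18, and the red parts are larger in the 3 libraries labelled H295R-PM-Ptc+.

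CLDN4 had the lowest adjusted p of the 10 genes. It is a tight junction claudin of simple epithelia (chr7:73799542-73832693) and had 31, 39 and 32 counts in H295R and 110, 84 and 87 in H295R-PM-Ptc+. The lowest H295R-PM-Ptc+ library thus had more than any H295R library. The mean rose from 1.38 ± 0.138 to 3.81 ± 0.465 CPM (SD, n = 3), which on the log2 scale is 1.47 with a standard error of 0.176 (adjusted p = 0.00252). Unlike the other 4 genes that rose, it was called in all 14 other ways of processing the counts, with an adjusted p of at most 0.0206.

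CLDN1, the claudin of the epidermal barrier (chr3:190305701-190322475), was far more abundant. It had 13242, 15431 and 15880 counts in H295R and 15541, 16946 and 15625 in H295R-PM-Ptc+. The groups overlapped, and the log2 fold change of 0.12, with a standard error of 0.0876 (adjusted p = 0.538), passed the test only with the replicate number as a block (adjusted p = 0.0470, higher in 3 of 3 pairs). For each CLDN1 count per kilobase there were 0.00185, 0.00199 and 0.00159 CLDN4 counts per kilobase in H295R and 0.00554, 0.00388 and 0.00436 in H295R-PM-Ptc+. The mean log2 ratio differed by 1.33 and was higher in H295R-PM-Ptc+ in 3 of 3 pairs (exact two-sided permutation test, p = 0.1, the smallest possible).

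EPCAM, a homophilic adhesion molecule of epithelial cells (chr2:47345158-47387601), had 42, 39 and 48 counts in H295R and 103, 73 and 68 in H295R-PM-Ptc+, without overlap. Its mean was 1.75 ± 0.204 CPM in H295R and 3.30 ± 0.631 CPM in H295R-PM-Ptc+ (SD, n = 3; log2 fold change 0.92, standard error 0.195, adjusted p = 0.0382). The call held without H295R replicate 1 (adjusted p = 0.0486) but was lost when any of the other 5 libraries was left out (0.0805 to 0.136). With the replicate block it was kept (adjusted p = 0.00142).

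JUP, or plakoglobin (chr17:41754604-41786931), was higher by less and did not pass the test. Its counts were 827, 780 and 895 in H295R and 991, 961 and 1040 in H295R-PM-Ptc+, again without overlap in CPM. The difference was 0.27 on the log2 scale (standard error 0.0950, adjusted p = 0.181), and it passed with the replicate block (0.00369), in which 22.5% of all tested genes were called, 12.1% higher and 10.4% lower.

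TJP1 and OCLN, the scaffold and the strand protein of the tight junction, did not pass the test in either fit. TJP1 (chr15:29699367-29968865) had 3968, 6181 and 6241 counts in H295R and 4147, 5927 and 5551 in H295R-PM-Ptc+. Replicate 1 lay below the mean of replicates 2 and 3 by 0.58 on the log2 scale in H295R and by 0.56 in H295R-PM-Ptc+, more than the groups differed (log2 fold change -0.05, standard error 0.187, adjusted p = 0.935). The sign turned without H295R replicate 2 (0.03), H295R replicate 3 (0.05) or H295R-PM-Ptc+ replicate 1 (0.11). OCLN (chr5:69492292-69558104) had 77, 91 and 86 counts in H295R and 80, 86 and 77 in H295R-PM-Ptc+ (log2 fold change -0.05, standard error 0.139, adjusted p = 0.903), and its CPM values overlapped. Within same-numbered pairs both genes were lower in H295R-PM-Ptc+ in 3 of 3, by at most 0.07 on the log2 scale for TJP1 and 0.06 for OCLN.

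**Figure D3:**
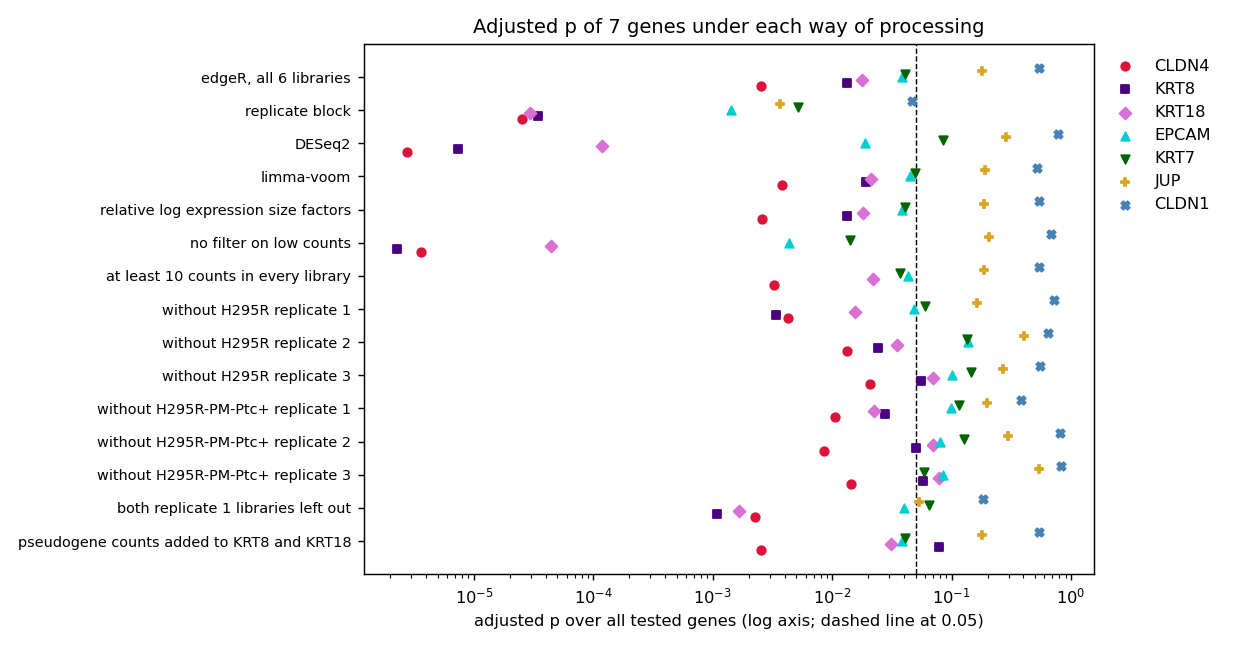
Adjusted p over all tested genes (log axis, dashed line at 0.05) of 7 genes under the edgeR test of all 6 libraries and 14 other ways of processing. CLDN4 lies left of the line in each row, KRT7 lies right of it wherever 1 library was left out, and JUP and CLDN1 lie left of it only with the replicate block.

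Per length the 10 genes covered a wide range of levels. CLDN1 was at 171.5 RPKM (counts per kilobase of annotated exons after scaling to CPM, mean of 6 libraries), above 99.0% of the tested genes, and KRT7 was at 0.175 RPKM, above 4.70%. Between them came KRT10 (12.1), TJP1 (11.5), JUP (7.55), EPCAM (1.00), KRT18 (0.993), CLDN4 (0.552), KRT8 (0.331) and OCLN (0.281 RPKM). Over the 6 libraries the ranges of neighbors in this order overlapped, except that CLDN1 lay wholly above KRT10 and JUP wholly above EPCAM. KRT8, KRT18, EPCAM and CLDN4 were at or below 1.62 RPKM in each library. The deposited lengths join all annotated exons of a gene and exceed a single transcript unevenly. They are 18859 bases against 7190 in the canonical transcript for TJP1 and 5011 against 1784 for KRT8. For KRT10 they are 2124 against 2143. The levels and their order, and ratios per kilobase, thus depend on the annotation, whereas differences between the groups do not.

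The other keratins had few counts. Of 51 further keratin genes, 26 had a count and 4 had enough to be tested, of which 3 were called higher (KRT80, KRT222 and KRT17), with 2.42% of all tested genes called in that direction. The epidermal keratins KRT5 and KRT1 had no counts in any library, and neither did KRT19. The type II keratin KRT80 (chr12:52168996-52192000) had 215, 264 and 259 counts in H295R and 333, 387 and 350 in H295R-PM-Ptc+ (log2 fold change 0.55, standard error 0.114, adjusted p = 0.0356). KRT222 had 209, 230 and 242 against 327, 308 and 297 (log2 fold change 0.46, standard error 0.0982, adjusted p = 0.0385). KRT17, a type I keratin of basal and injured epithelium, had 3, 3 and 6 against 12, 16 and 16 (1.85, standard error 0.391, adjusted p = 0.0373) and entered the test through the counts of the H295R-PM-Ptc+ libraries alone. Each of these 3 calls depended on single libraries. KRT80 was lost without replicate 2 or 3 of either group (adjusted p up to 0.153) and KRT222 and KRT17 without any 1 library (0.0524 to 0.156 and 0.0515 to 0.148), KRT17 also with DESeq2 (0.0889). KRT23 had 98, 81 and 114 against 184, 156 and 122 counts and did not pass (log2 fold change 0.66, adjusted p = 0.0859; 0.00434 with the replicate block). The groups did not overlap in these 4 genes, as in 12.4% of all tested genes in this direction. KRT10 made up 63.5% to 68.6% of the summed RPKM of all keratins in H295R and 52.7% to 54.9% in H295R-PM-Ptc+, where the sum itself was 22.2 to 22.9 RPKM against 17.1 to 19.8. The share of KRT18 was 2.29% to 3.59% in H295R and 5.10% to 7.26% in H295R-PM-Ptc+.

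Of 21 other claudins, 11 had a count, 4 were tested and 0 were called by edgeR, DESeq2 or limma-voom, with 1 at an unadjusted p under 0.05, beside 3.73% and 17.3% of all tested genes. That gene was CLDN15, a pore-forming claudin, which had 216, 243 and 224 counts in H295R and 368, 335 and 233 in H295R-PM-Ptc+ (log2 fold change 0.46, standard error 0.141, adjusted p = 0.125; 0.00480 with the replicate block). The second most abundant claudin, CLDN12, held between 1276 and 1559 counts (log2 fold change 0.12, adjusted p = 0.437). CLDN3 had no counts in any library, and CLDN7 held at most 2. CLDN1 made up 91.3% to 93.6% of the summed claudin RPKM in each library. CLDN4 took 0.147% to 0.183% of it in H295R and 0.358% to 0.503% in H295R-PM-Ptc+.

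Among 18 other tight junction genes, 17 were tested, 3 rose and 0 fell with an adjusted p under 0.05 (median log2 fold change 0.05), beside 2.42% and 1.32% of all tested genes. F11R, which encodes the junctional adhesion molecule JAM-A, had 197, 205 and 200 counts in H295R and 465, 469 and 433 in H295R-PM-Ptc+. Its replicates hardly differed, and the log2 fold change of 1.19, with a standard error of 0.0893 (adjusted p = 3.93e-04), was called under each alternative. MARVELD3, of the occludin family, had 34, 22 and 17 against 64, 50 and 50 counts (1.17, adjusted p = 0.0486), and CGN, the cytoplasmic plaque protein cingulin, had 69, 117 and 111 against 176, 179 and 186 (0.88, adjusted p = 0.0348). Both of these were lost when any 1 library other than H295R replicate 1 was left out (adjusted p up to 0.167 and 0.143). The genes highest per length were PRKCI, the atypical kinase of the polarity complex (log2 fold change -0.06, adjusted p = 0.775), and JAM3 (0.05, adjusted p = 0.810). With the replicate block 5 genes of this list were called higher and 3 lower, beside 12.1% and 10.4% of all tested genes.

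**Figure D4:**
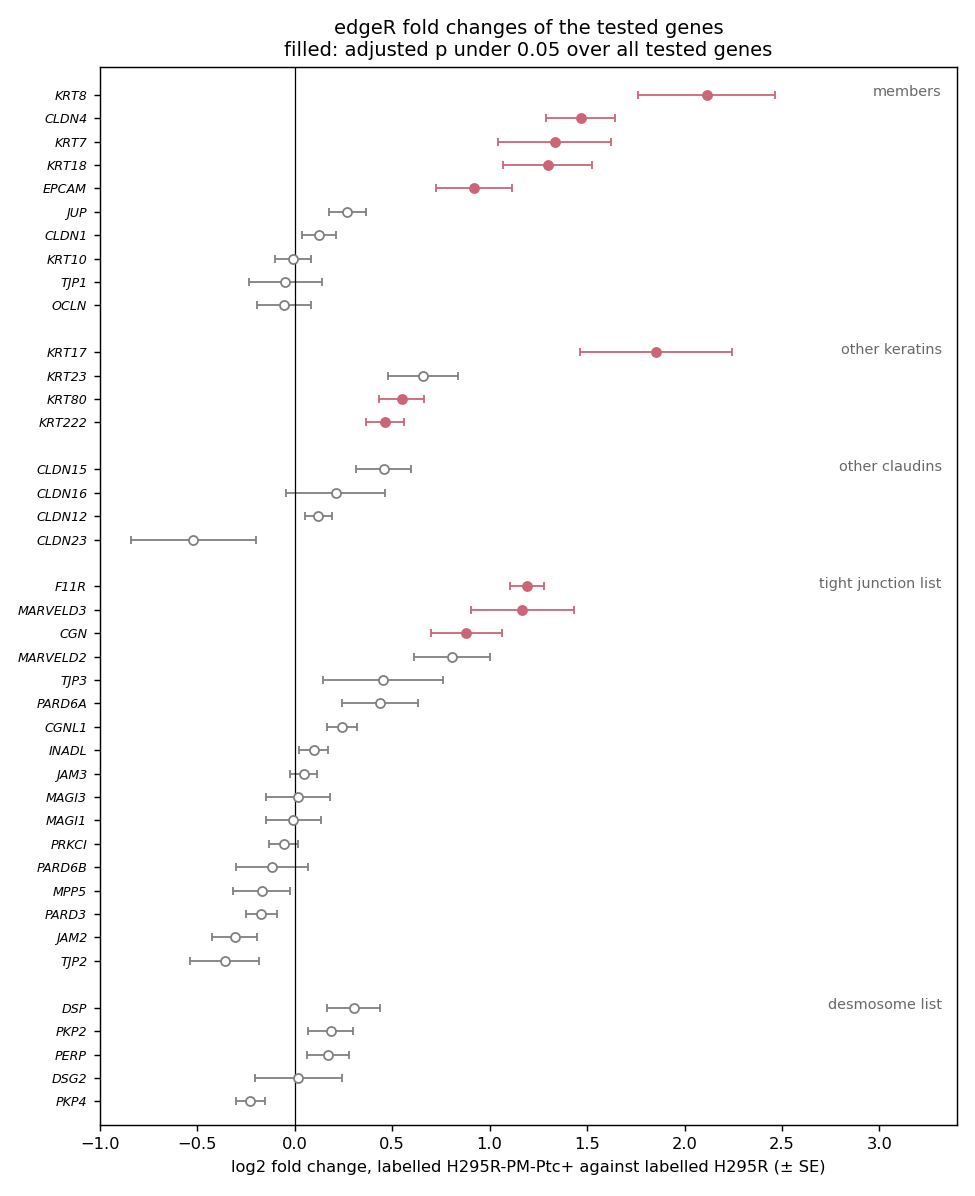
Log2 fold changes with standard errors from edgeR's test for the 10 genes (top) and the tested genes among the other keratins, other claudins, tight junction and desmosome lists, with filled points for an adjusted p under 0.05. KRT8 (2.11) and KRT17 (1.85) lie farthest to the right, F11R (1.19) has a short bar, and no desmosome gene is filled.

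Of 13 desmosome genes, 5 were tested and 0 were called by edgeR, DESeq2 or limma-voom, with 1 at an unadjusted p under 0.05. Desmoplakin (DSP), the desmosomal linker to keratin, had 2127, 2952 and 2623 counts in H295R and 2676, 3435 and 3275 in H295R-PM-Ptc+ (log2 fold change 0.30, adjusted p = 0.295; 3.36e-04 with the replicate block). PKP4 was at -0.23 on that scale (adjusted p = 0.144, 0.00287 with the block), and the plakophilins PKP1 and PKP3 had no counts. Of 11 adherens junction genes, 8 were tested and 0 were called by any of the 3 tools, with 1 at an unadjusted p under 0.05. The catenins CTNNB1 (25463 to 34727 counts; log2 fold change -0.09, adjusted p = 0.747) and CTNNA1 (-0.02, adjusted p = 0.962) were the most abundant, while CDH1, the E-cadherin of epithelia, held only 3 to 5 counts in any library and was not tested. With the block 2 adherens junction genes were called higher and 1 lower, and 1 desmosome gene each way, beside 12.1% and 10.4% of all tested genes. An unadjusted p under 0.05 was found for 17.3% of all tested genes.

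A list of 20 other genes of epithelial identity had 7 tested members, of which 3 rose and 1 fell, beside 2.42% and 1.32% of all tested genes. MAL2, a protein of apical transport, had 98, 131 and 130 counts in H295R and 426, 393 and 334 in H295R-PM-Ptc+ (log2 fold change 1.69, standard error 0.129, adjusted p = 3.93e-04) and was called under each alternative. The membrane-bound protease inhibitors SPINT1 (17, 8 and 11 against 66, 46 and 35; log2 fold change 2.02, adjusted p = 0.0124) and SPINT2 (84, 46 and 41 against 166, 149 and 135; 1.4, adjusted p = 0.0204) rose as well. SPINT1, which entered the test through the H295R-PM-Ptc+ libraries alone, was lost without H295R replicate 2 or 3 (adjusted p up to 0.0666) and SPINT2 without any 1 library other than H295R replicate 1 (up to 0.0852). EHF, an epithelial transcription factor of the ETS family, fell from 68, 96 and 60 to 28, 28 and 29 counts (log2 fold change -1.38, adjusted p = 0.0106) and was lost without H295R-PM-Ptc+ replicate 2 (0.0540). GRHL2 held at most 1 count in a library, and OVOL1 and LAD1 held none.

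Of the 6 transcription factors of the SNAI, ZEB and TWIST families, which repress epithelial genes, 4 were tested and 0 were called by edgeR or limma-voom, with 1 at an unadjusted p under 0.05, while DESeq2 called 1 lower, beside 319 lower of the 18959 genes it tested. SNAI2, the highest per length, had 1210, 1280 and 1350 counts in H295R and 1142, 970 and 936 in H295R-PM-Ptc+ (log2 fold change -0.33, adjusted p = 0.0632; 8.59e-04 with the replicate block). For TWIST1 it was 0.06 (adjusted p = 0.903). With the block 2 of these factors were called lower, beside 10.4% of all tested genes, and 0 higher. Among 18 other intermediate filament and linker genes, 17 were tested, 1 rose and 1 fell, where 3.73% of all tested genes were called. Vimentin (VIM), the filament of mesenchymal and adrenocortical cells, was the highest per length with 26924 to 34261 counts (log2 fold change 0.07, adjusted p = 0.791), at 261.5 RPKM against 12.1 RPKM for KRT10, and the lamin LMNB1 came next (0.17, adjusted p = 0.440; 0.00969 with the block). Nestin (NES) rose from 59, 111 and 99 to 232, 274 and 219 counts (1.44, standard error 0.198, adjusted p = 0.00514), and the neurofilament NEFL fell (-0.34, adjusted p = 0.0417, and up to 0.186 when any 1 library other than H295R replicate 1 was left out). With the block 7 genes of this list were called higher and 2 lower, beside 12.1% and 10.4% of all tested genes. Of the 7, EPPK1 and EVPL entered the test through the H295R-PM-Ptc+ libraries alone, where they are high.

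Markers of other cell types were set beside these values. None of 8 keratinocyte markers was tested, and their sum was at most 0.460 CPM in H295R and 0.322 CPM in H295R-PM-Ptc+, with KRT5, KRT1, IVL and LOR at 0. Of 8 fibroblast markers 2 were tested, and the list summed to 30.8 to 33.5 CPM in H295R and 73.8 to 78.1 CPM in H295R-PM-Ptc+, of which COL3A1 made up 23.3 and 66.5 CPM on average (577, 573 and 575 against 1760, 1585 and 1545 counts; log2 fold change 1.51, adjusted p = 1.31e-04), and COL1A1 8.36 and 9.65 CPM (0.21, adjusted p = 0.455), while DCN held at most 5 counts, and LUM and POSTN were at 0. None of 6 endothelial markers was tested (0.197 to 0.335 against 0.509 to 0.648 CPM in sum), the highest being TEK and CDH5 with at most 11 and 5 counts. Among the immune markers LYZ held at most 2 counts, and PTPRC and CD68 were at 0. Among the chromaffin markers CHGB (-0.39, adjusted p = 0.0579; 7.38e-05 with the block) and CHGA (0.57, adjusted p = 0.305) were tested, and DBH and PNMT were at 0. Of the adrenal cortex markers, the lipoprotein receptor SCARB1 (log2 fold change 0.63, adjusted p = 0.00345), CYP21A2 (0.88, adjusted p = 0.00670) and SULT2A1 (0.60, adjusted p = 0.0306) rose, and SULT2A1 was lost without any 1 library other than H295R replicate 1 (up to 0.0879). Over the 11 tested markers the median log2 fold change was 0.01, with 6 above 0 and 5 below, NR5A1 among the latter (-0.06, adjusted p = 0.797), and with the block 4 were called higher and 1 lower, beside 12.1% and 10.4% of all tested genes (2.42% higher without it). The list summed to 1808 to 2139 CPM against 2400 to 2667 CPM, of which SCARB1 held 816.5 and 1263 CPM on average. The part of any of these in the change of the 5 genes was not tested.

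The 5 genes that rose ranked between 64 (KRT8) and 212 (EPCAM) by log2 fold change among the 404 genes called higher. By the root mean square difference of log2 CPM, centred on each gene's mean over the 6 libraries, the genes most like KRT8 among 16707 included AXL (0.293), SLC7A14 (0.309), MAGEA1 (0.312) and KLHDC7A (0.351). AXL, a receptor tyrosine kinase, had 9, 18 and 19 counts in H295R and 76, 79 and 86 in H295R-PM-Ptc+. The partner KRT18 was at rank 37, CLDN4 at 82, KRT7 at 233 and EPCAM at 402 in this order, while KRT10 and OCLN were at 7045 and 8115. This order was made from the same 6 libraries and carries no test.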

How the data were processed

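RNA of 3 libraries labelled H295R and 3 labelled H295R-PM-Ptc+ was sequenced on a NextSeq 500 in paired reads of 75 bases from stranded libraries (an mRNA kit per the study's methods, a total RNA kit per the labels). The authors used STAR 2.4.0a on hg38 and summed fragments by gene name in featureCounts with an Ensembl GRCh38 annotation, with strand, multiply mapped reads at their primary position. They deposited raw counts without normalization or filter. The Subread release differs between the methods and the submitters' processing notes (1.5.0-p3 in the latter). One row without a gene name held 0 counts and was left out.

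Genes passing filterByExpr (10 counts at the median library size in at least 3 libraries) were TMM-normalized, in counts per 1000000 (CPM), and put through edgeR 4.0.16 (R 4.3.3, glmQLFit and glmQLFTest, two-sided, group only, Benjamini-Hochberg adjustment over the 16710 genes tested), and all adjusted p-values come from that fit unless another is named. RPKM was computed from these CPM and the deposited gene lengths. Standard errors of edgeR's log2 fold changes were derived, as the absolute log2 fold change divided by the square root of the test's F statistic. Ratios of 2 genes used counts plus 0.5. The script was tested on simulated counts. Alternatives were the replicate number as a block, DESeq2 1.42.0, limma-voom 3.58.1, relative log expression in place of TMM, no low-count filter, a minimum of 10 counts in every library, each library left out, both replicate 1 libraries left out, and pseudogene counts added to KRT8 and KRT18. Same-numbered replicates deviated together (correlations across genes of 0.497, 0.307 and 0.228, against -0.352 to 0.150 for other numbers) and share a code in the labels, whose meaning is not stated, which is where the pairing comes from. Replicates differed by more than counting error (chi-square per gene 5.56 to 25.8). Where a fit had 1 library less, a group of 2 remained.

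Named genes were the 10 genes, other keratins and claudins that were called, in each list the called genes and the 2 highest per length, the 3 highest pseudogenes of KRT8 and KRT18, genes overlapping exons of the 10 genes, the 5 genes most like KRT8, and PTCH1, of which a few are not reported here. KRT23, CLDN15, CLDN12, CDH1, EPPK1, EVPL and genes named for holding few or no counts were added after their values were seen. The genes and lists were chosen with earlier results of these data known. Windows and sequences came from GENCODE v44 transcripts (GRCh38). Tables were handled with Python 3.11.15, pandas 2.3.3 and SciPy 1.17.1 and drawn with matplotlib 3.10.9.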

Additional observations from a re-analysis of the deposited data

How the results depend on the processing

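Of the 10 genes, 5 were called higher, and 7 were with the replicate block, 5 with limma-voom, relative log expression or no filter, 4 with DESeq2, with at least 10 counts in every library (KRT8 was then not tested), without both replicate 1 libraries or with pseudogene counts added, and 1 to 4 when each library was left out. CLDN4 was the gene kept in each of these, and 0 were called lower in any. The log2 difference of the KRT8 to KRT18 ratio turned to -0.40 with pseudogene counts added, by construction, since the KRT8 pseudogenes hold more counts. Small and uncalled fold changes turned for KRT10 (-0.072 to 0.076 with 1 library left out, positive without replicate 2 of either group) and TJP1 (-0.22 to 0.11, positive without H295R replicate 2 or 3 or H295R-PM-Ptc+ replicate 1). The 624 genes called became 3758 with the replicate block, 1111 without a filter, 2013 without both replicate 1 libraries and 219 to 810 with 1 library left out. The 3 other keratins called became 0 to 1 with 1 library left out, and the 0 other claudins became 1 (CLDN15) with the block. The 7 called junction and epithelial genes became 17 with the block, 13 without both replicate 1 libraries and 3 to 9 with 1 library left out. The cause of these changes was not tested. At 5 to 70 counts per library, KRT8 and KRT7 carry wide counting error.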
